A study of Mus musculus with 30 samples.

Results

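Collagens are the main structural proteins of the extracellular matrix, and fibroblasts are their main producers. The genes described here are the 44 protein-coding mouse genes whose symbol is Col, a type number, a and a chain number (Col1a1, for example), among 36048 features counted in the libraries, of which 22028 were protein-coding genes. They were taken by symbol alone, with no measured value. By type number they fall into 11 fibril-forming genes, 9 fibril-associated genes (FACIT), 6 genes of the basement membrane network, 6 beaded filament genes, 4 transmembrane genes, 3 hexagonal network genes, 2 multiplexin genes, 2 others and 1 anchoring fibril gene.

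All libraries come from NIH3T3-CG, a line of mouse embryonic fibroblasts, and bulk RNA was sequenced from 10 groups of 3 libraries. In 1 experiment cells transduced with Prrx1 were kept with doxycycline or without it, and no line without the Prrx1 construct was given doxycycline, so the drug and the factor cannot be told apart there. In the other experiments cells received a transfection with a transcription factor or a control: Prrx1 and Snai1 shared 1 control group, Egr1 and Jun shared a second, and Srebf2 had its own. Prrx1 is a homeodomain factor of mesenchymal cells, Snai1 a zinc finger repressor of epithelial genes, Egr1 an immediate early zinc finger factor, Jun a subunit of AP-1, and Srebf2 the main activator of sterol synthesis genes. Nothing in the labels says whether the 3 libraries of a group came from separate cultures, so the p-values weigh a difference only against the spread of these libraries, and that spread may be technical. Bulk RNA cannot tell fewer cells of a type from less RNA per cell.

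Library totals ranged from 7996355 to 37068611 estimated counts, lowest with doxycycline (7996355 to 12600603). Each delivered factor was higher in its own libraries, with log2 fold changes of 1.95 for Prrx1 with doxycycline, 4.78 for transfected Prrx1, 6.94 for Snai1, 3.25 for Egr1, 4.47 for Jun and 2.07 for Srebf2. Of 13 fibroblast markers all 13 matched, with summed levels of 10690 to 19820 counts scaled to library size (CPM, which uses TMM-scaled totals), and Fap stayed under 1 CPM in every library. Fn1 and Vim made up 83.6 to 91.9% of that sum, so it says little of the other markers. Several markers set the transduction libraries apart from all transfection libraries, among them the following: Dcn was at 1.17 to 4.56 CPM against 95.8 to 316.7 CPM, Lum at 0.09 to 1.29 CPM against 11.6 to 73.01 CPM, and the endothelial marker Pecam1 at 13.8 to 22.6 CPM against at most 1.97 CPM. The third Egr1 library had 168 CPM over 9 epithelial markers (10.7 and 28.3 in the other Egr1 libraries), and the second Egr1 and Jun control had 119 CPM over 8 neural markers (19.05 and 24.1 in the other controls).

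A collagen molecule is a triple helix of 3 chains. Type I, III and V chains build the banded fibrils, with type I the bulk and type V a minor component that is known to set fibril diameter. Type IV forms the sheet of basement membranes, type VI a beaded microfibril around cells, and type VII the fibrils that anchor epithelium to dermis. FACIT collagens such as types IX and XVI sit on the surface of other fibrils.

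The sequence upstream of the start is shown for 3 fibril-forming genes that the results below turn on: Col11a2, the collagen gene called with the Prrx1 plasmid, Col3a1, which fell with doxycycline, and Col5a1, which rose. Each is the 250 bases before the RefSeq start in build GRCm38.p6, on the plus strand, 5′ to 3′, at chr17:34038888-34039137 for Col11a2, chr1:45311288-45311537 for Col3a1 and chr2:27886175-27886424 for Col5a1.
Col11a2: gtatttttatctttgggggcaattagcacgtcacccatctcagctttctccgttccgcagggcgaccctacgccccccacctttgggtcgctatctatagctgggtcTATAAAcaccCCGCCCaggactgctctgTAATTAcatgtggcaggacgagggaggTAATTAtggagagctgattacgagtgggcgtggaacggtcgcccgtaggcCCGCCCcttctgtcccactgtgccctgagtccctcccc
Col3a1: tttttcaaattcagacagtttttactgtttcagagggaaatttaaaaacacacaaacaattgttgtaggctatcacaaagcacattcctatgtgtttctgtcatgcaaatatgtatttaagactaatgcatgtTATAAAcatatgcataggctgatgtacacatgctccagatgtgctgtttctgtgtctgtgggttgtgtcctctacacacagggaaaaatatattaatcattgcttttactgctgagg
Col5a1: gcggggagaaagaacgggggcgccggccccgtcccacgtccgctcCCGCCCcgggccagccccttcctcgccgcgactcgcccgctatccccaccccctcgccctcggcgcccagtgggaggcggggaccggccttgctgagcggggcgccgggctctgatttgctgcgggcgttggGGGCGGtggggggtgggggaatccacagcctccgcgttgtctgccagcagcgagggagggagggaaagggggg
Capitals mark matches, on either strand, to the TBP-bound box TATAAA, the Sp1 motif GGGCGG, the homeodomain core TAATTA, the NF-Y motif CCAAT, the AP-1 site TGANTCA, the EGR site GCGNGGGCG (which can overlap the Sp1 motif), the sterol response element TCACNCCAC and the Snail E-box CAGGTG. RefSeq windows of 300 bases, from 250 before to 50 after a start, were found for 35 of the 44 genes. The Sp1 motif was in 22 of these 35 genes (62.9%) and in 35.7% of all 32851 windows. A CCAAT match was in 13 of the 35 (37.1%) and in 37.4% of all windows, and a TBP-bound box in 5 (14.3%) and 13.6%. TAATTA was in 2, Col10a1 and Col11a2 (5.71%, against 5.29% of all windows), and Col11a2 holds 2 copies in the sequence shown. The shorter ATTA was in 13 of the 35 (37.1%, against 58.0% of all windows). TGANTCA was in 1 gene, Col6a1 (2.86% against 7.81%), GCGNGGGCG in 3 (8.57% against 5.55%), TCACNCCAC in 2, Col11a2 and Col17a1 (5.71% against 1.24%; in Col11a2 after the start, outside the sequence shown), and CAGGTG in 5 (14.3% against 20.2%). Of the collagen genes called with doxycycline, 7 had a window, and 0 of these 7 held the homeodomain core and 1 its shorter form. Col11a2 was not called with doxycycline. All of these are matches of letters, not measured sites, and a link between a match and a call was not tested.

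Col1a2, a type I chain, had the highest level of all collagen genes in every group. Levels between genes are compared in TPM (transcript abundance scaled to a fixed library sum), which is per length and is summed here over a gene's transcripts. Over the 30 libraries, the mean level of Col1a2, the alpha 2 chain of type I, was 1118 TPM and that of Col1a1, its alpha 1 chain, 412 TPM. Col3a1, the type III chain, followed at a mean of 272.2 TPM and the FACIT gene Col16a1 at 200.8 TPM. Between 50 and 130 TPM lay all 3 tested type VI chains (Col6a1 120.1, Col6a3 114.1 and Col6a2 65.3), 2 type V chains (Col5a2 117.3 and Col5a1 72.0) and the type IV pair (Col4a1 107.9 and Col4a2 60.4). The remaining type V chain, Col5a3, was at 0.032 TPM. In all, 14 genes had a mean of 10 TPM or more, 9 lay between 1 and 10, and 21 were under 1. The order by mean does not hold in each group. In the Srebf2 experiment Col3a1 over Col1a1 was 1.01 ± 0.07 (SD, n = 3) in controls and 1.17 ± 0.21 (SD, n = 3) with Srebf2.

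**Figure D1:**
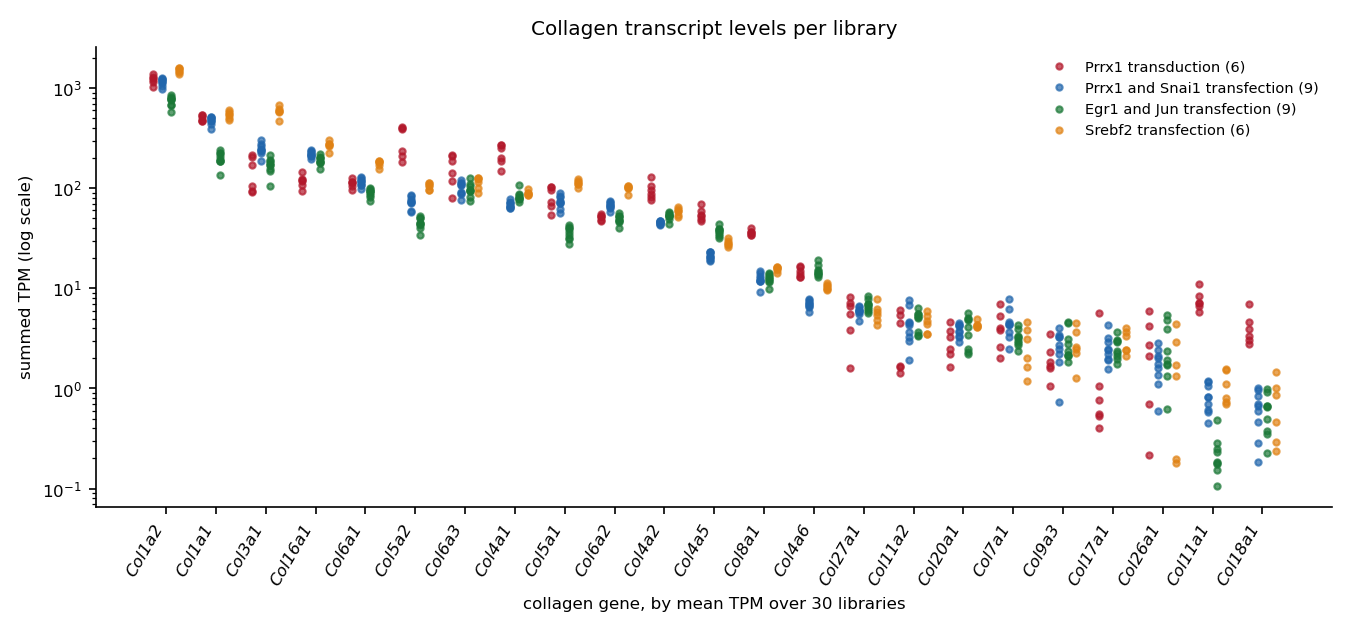
Summed TPM (log scale) of the 23 collagen genes with a mean of at least 1 TPM, 1 point per library, coloured by experiment with the number of libraries in brackets. Col1a2 and Col1a1 lead in mean level, Egr1 and Jun experiment libraries lie lowest for Col1a1, and Col5a2, Col11a1 and Col18a1 lie highest in the transduction libraries.

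Collagens known from cartilage ranged from near the floor to a few TPM. Col2a1, the main chain of cartilage fibrils, had a mean level of 0.12 TPM, and Col10a1, the chain of hypertrophic cartilage, 0.14 TPM, whereas Col11a1 was at 2.07 TPM, Col9a3 at 2.61 TPM, Col11a2 at 4.38 TPM and Col27a1 at 6.06 TPM. Of the collagens known from epithelium, Col7a1 was at 3.71 TPM and Col17a1, a transmembrane chain of hemidesmosomes, at 2.44 TPM. These genes were chosen after their values were seen. There were 14 genes that passed the filter on low counts in none of the 6 comparisons with a control; they had 4 to 218 estimated counts over all 30 libraries and at most 1.097 TPM in any library. A further 25 genes were tested in all 6 comparisons, and 30 in at least 1. The 30 are not all members, and a gene can pass the filter through 1 group in which it is high.

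The annotation limits a few of these levels. Of the counts of Col26a1, 63.0% were assigned to a retained intron transcript of 578 nt, so its 2.21 TPM is no measure of the coding message. Nor is the summed TPM of Col7a1. Its retained intron transcript Col7a1-208, of 525 nt, had group means of 1.61 to 4.10 TPM, against 0.249 to 0.569 TPM for the coding Col7a1-201. Col9a3 is limited too: with doxycycline, 55.1% and 33.5% of its counts were assigned to the retained intron transcripts Col9a3-202 and Col9a3-206. In Col16a1 the leading transcripts were Col16a1-209, annotated as subject to nonsense-mediated decay, with 37.9% of counts, and a processed transcript with 26.3%. In the transduction libraries Col4a1-201, the coding transcript of Col4a1, held 71.6% of the gene's counts with doxycycline and 66.6% without, against 98.7% in the Prrx1 and Snai1 control. Summed TPM weights the short transcripts that hold the rest, so Col4a1 reached 247 and 196 TPM in these groups although its level in CPM (292 and 233) was below that of the same control (303.0 to 328.4 in its libraries).

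Type I chains had an unequal ratio that differed between experiments. Col1a1 over Col1a2, in TPM, lay between 0.324 and 0.456 in all libraries of the transduction, Prrx1 and Snai1, and Srebf2 experiments, and between 0.235 and 0.280 in the 9 libraries of the Egr1 and Jun experiment. In CPM it was 0.497 to 0.562 in the transduction libraries and 0.456 to 0.511 in the Prrx1 and Snai1 libraries. It was 0.373 to 0.450 in the Srebf2 libraries and 0.278 to 0.330 in the Egr1 and Jun experiment. In that experiment Col1a1 itself was 170 to 227 TPM as group means, against 446 to 547 TPM in the other 7 groups. All collagen genes together took 0.560 to 0.740% of the counts of its libraries, 0.848 to 1.08% in the Prrx1 and Snai1 experiment, and 1.23 to 1.42% in the Srebf2 experiment. In the transduction experiment the share was 0.981 to 1.02% with doxycycline and 0.855 to 0.941% without, and in the Egr1 and Jun experiment the controls (0.560 to 0.653%) lay under both treated groups. No test was made of these shares. The experiments differ in depth and fragment length as well, so experiment and cell state cannot be told apart. In CPM, 7 collagen genes stood higher in all 3 transduction libraries without doxycycline than in all 24 transfection libraries (Col4a3, Col4a5, Col5a2, Col8a1, Col11a1, Col12a1 and Col18a1), and 8 stood lower (Col4a1, Col4a2, Col6a3, Col16a1, Col17a1, Col20a1, Col27a1 and Col28a1). Col5a2 was at 622.8 to 686.0 CPM, against at most 489.4 CPM in any transfection library, Col8a1, a short-chain collagen of hexagonal networks, at 121.3 to 136.1 CPM against at most 57.9 CPM, and Col11a1, a chain of the thin fibrils of cartilage, at 17.4 to 18.8 CPM against at most 4.5 CPM. Col16a1 was at 236.5 to 265.5 CPM, against at least 427.8 CPM. The markers Dcn, Lum and Pecam1 given above separate the same libraries, and their part in these differences was not tested. CPM were scaled within each experiment, and no test was made between experiments of these levels. The share of all genes that stood apart in the same way was not computed. The counts of 7 and 8 can therefore not be read as particular to collagens.

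Doxycycline in the Prrx1-transduced cells came with changes in 8 collagen genes, while neither chain of type I, the most abundant collagen, passed the test. The threshold for a call was 0.05 on the Benjamini-Hochberg adjusted p of edgeR's quasi-likelihood test, adjusted over all genes tested, and levels of 1 gene between libraries are in CPM. Of 26 collagen genes tested, 6 rose, 2 fell and 18 did not pass, whereas 6.19% of all 13632 genes tested were called (3.46% higher, 2.74% lower). The median log2 fold change of the 26 was 0.19, and that of all genes tested −0.01. The groups did not overlap for 9 collagen genes that were higher and 4 that were lower, and for 25.4% of all genes tested.

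Of 8 tested fibril-forming genes 3 rose and 1 fell. Col5a2, the type V alpha 2 chain, was at 1253, 1299 and 1263 CPM with doxycycline and at 686.0, 622.8 and 641.7 CPM without. Every doxycycline library was near 2 times the level of every control, a log2 fold change of 0.97 (SE 0.08, edgeR adjusted p = 1.7e-05). Col5a1, the alpha 1 chain of the same heterotrimer, was at 536.7, 549.5 and 541.6 CPM against 341.6, 378.4 and 346.3 CPM, and the groups did not overlap. Its log2 fold change was 0.61 (SE 0.08, edgeR adjusted p = 0.00051). Col27a1, a fibril-forming chain known from cartilage, was at 18.3, 18.3 and 15.4 CPM against 6.8, 11.4 and 8.7 CPM. It too was higher in 3 of 3 libraries, by 0.97 on the log2 scale (SE 0.21, edgeR adjusted p = 0.018).

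Col3a1 went the other way. This type III chain, which forms fibrils with type I, was at 285.9, 263.6 and 244.7 CPM with doxycycline and at 531.4, 514.2 and 491.6 CPM without. All 3 doxycycline libraries lay under all 3 controls, with a log2 fold change of −0.95 (SE 0.08, edgeR adjusted p = 3.5e-05). In TPM, Col3a1 over Col1a1 was 0.189 ± 0.007 (SD, n = 3) with doxycycline and 0.398 ± 0.040 (SD, n = 3) without. Col3a1 (chr1:45311538-45349706, plus strand) and Col5a2 (chr1:45374321-45503282, minus strand) are neighbours on chromosome 1 of GRCm38, tail to tail with 24614 bp between them, and they changed in opposite directions.

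Col1a1 was at 1937, 1906 and 1855 CPM with doxycycline and 1979, 2057 and 1775 CPM without, with overlapping groups and a log2 fold change of −0.03 (SE 0.08, edgeR adjusted p = 0.89). Col1a2 was at 3868, 3725 and 3737 CPM against 3523, 3751 and 3419 CPM, a log2 fold change of 0.08 (SE 0.07, edgeR adjusted p = 0.60). Neither chain of type I passed the test. The remaining tested fibril-forming genes, Col11a1 (0.28) and Col11a2 (−0.23), did not pass either.

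**Figure D2:**
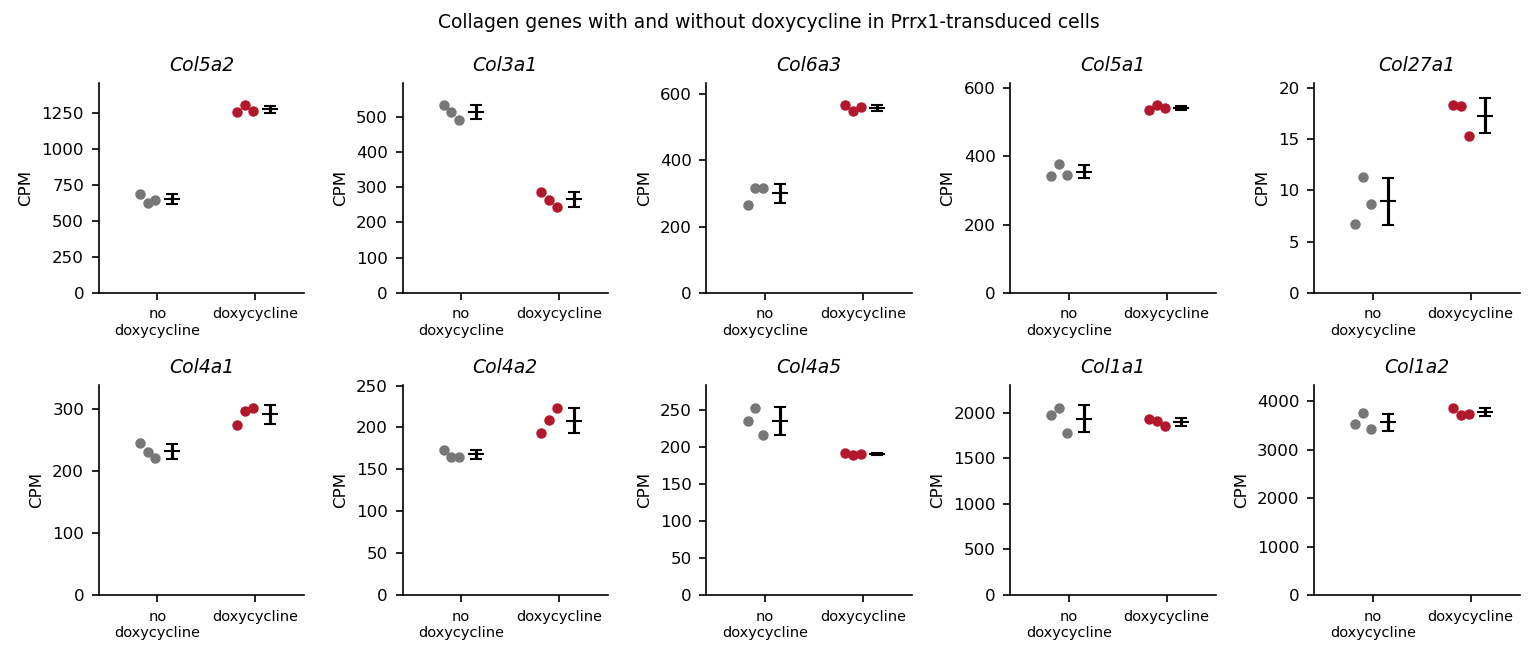
CPM of the 8 collagen genes called with doxycycline, and of Col1a1 and Col1a2, in each of 3 libraries without doxycycline (grey) and 3 with it (red); bars are the mean ± SD, and every axis starts at 0. Col5a2, Col6a3, Col5a1, Col27a1, Col4a1 and Col4a2 are apart upward, Col3a1 and Col4a5 are apart downward, and the type I genes overlap.

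Within type VI, 1 chain of 3 rose. Col6a3, the large chain that carries the endotrophin fragment, was at 565.9, 549.4 and 559.8 CPM with doxycycline and at 266.5, 317.1 and 316.5 CPM without. The groups were apart, with a log2 fold change of 0.90 (SE 0.09, edgeR adjusted p = 7.5e-05). Its partner chains did not pass, Col6a1 at a log2 fold change of 0.02 (SE 0.09) and Col6a2 at 0.05 (SE 0.08). The TPM ratio of Col6a3 over Col6a1 was 1.78 ± 0.16 (SD, n = 3) with doxycycline and 1.02 ± 0.16 (SD, n = 3) without. Minor transcripts weigh heavily in this summed TPM. The leading coding transcripts Col6a3-201 and Col6a3-202 were at 37.3 and 23.7 TPM with doxycycline, where the gene summed to 185.4 to 214.7 TPM. Without it they were at 13.2 and 13.9 TPM, where the gene summed to 80.9 to 143.4 TPM. In CPM the ratio was 1.825 ± 0.092 (SD, n = 3) with doxycycline and 0.997 ± 0.112 (SD, n = 3) without.

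Of 6 tested type IV genes 2 rose and 1 fell. Col4a1 and Col4a2 encode the common basement membrane heterotrimer and lie head to head on chromosome 8, with their annotated ends overlapping by 22 bp. Col4a1 was at 274.8, 298.2 and 302.8 CPM with doxycycline and 245.1, 230.9 and 221.6 CPM without, a log2 fold change of 0.33 (SE 0.08, edgeR adjusted p = 0.028). Col4a2 was at 192.9, 208.5 and 223.6 CPM against 173.6, 164.8 and 165.2 CPM, a log2 fold change of 0.31 (SE 0.08, edgeR adjusted p = 0.042). Both were higher in 3 of 3 libraries.

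Col4a5, the chain mutated in X-linked Alport syndrome, fell, at 191.8, 189.0 and 190.5 CPM against 235.5, 253.0 and 216.2 CPM, a log2 fold change of −0.30 (SE 0.08, edgeR adjusted p = 0.046). Col4a6, its head-to-head neighbour on the X chromosome with 1308 bp between them, had a log2 fold change of −0.30 (SE 0.09) at an edgeR adjusted p of 0.071, and its groups were apart (55.0, 60.1 and 57.9 against 70.6, 71.0 and 72.0 CPM). Col4a3 (−0.92, SE 0.54) and Col4a4 (1.07, SE 0.55) are near the floor and did not pass.

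No gene of the other classes passed with doxycycline. Col7a1, the anchoring fibril chain, was at 2.1, 2.6 and 2.4 CPM against 4.6, 4.7 and 5.9 CPM, with groups apart, a log2 fold change of −1.08 (SE 0.31) and an edgeR adjusted p of 0.065. All 4 tested FACIT genes were positive in sign, from 0.14 (Col16a1) to 0.67 (Col20a1, edgeR adjusted p = 0.12), without a call. Col18a1, the multiplexin from which endostatin is cut, was at 0.46 (SE 0.33, edgeR adjusted p = 0.51).

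The calls of Col5a2, Col3a1, Col6a3 and Col5a1 held with each library left out in turn; Col27a1, Col4a1, Col4a2 and Col4a5 each lost the call without any 1 of the doxycycline libraries, Col27a1 and Col4a1 also without the third control, Col4a2 without the second or the third and Col4a5 without the first or the second (adjusted p 0.052 to 0.22). On log2(TPM + 1) with limma, Col5a2 and Col3a1 were called and Col6a3 (adjusted p = 0.12) and Col5a1 (adjusted p = 0.074) were not. The libraries also differ by group in ways that move with these values: the mean fragment length implied by the files (transcript length less effective length) was 186.6 to 188.6 nt with doxycycline and 162.1 to 174.9 nt without, summed fibroblast markers (13 of 13 matched, 91.3% of the sum from Fn1 and Vim) were 12080 to 12630 CPM against 10690 to 12070 CPM, osteoblast markers (8 of 8) 98.9 to 106 CPM against 81.8 to 91.4 CPM, and neural markers (8 of 8) 11.2 to 12.7 CPM against 7.60 to 10.6 CPM. Of the single fibroblast markers, 3 were apart upward (Vim, Pdgfrb and Fbn1) and 3 downward: Pdgfra at 465.1 to 489.5 against 527.1 to 546.9 CPM, Postn at 1.13 to 1.26 against 3.19 to 4.61 CPM, and Dcn at 1.17 to 2.84 against 3.56 to 4.56 CPM. Runx2 made up 90.0% of the osteoblast sum, and the defining markers Sp7, Bglap, Ibsp and Dmp1 were under 1 CPM in every library. The part of these differences in the collagen values was not tested.

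Of the genes that act on collagen after translation, more were called lower than higher with doxycycline; over all genes tested 6.19% were called, 3.46% higher and 2.74% lower. Of 12 tested genes for proline and lysine modification 3 fell and none rose. P4hb, the beta subunit of prolyl 4-hydroxylase, was at 553.5 CPM (SD 40.1, n = 3) with doxycycline and 719.2 CPM (SD 55.96, n = 3) without (log2 fold change −0.38), and its catalytic partners P4ha1 (−0.31) and P4ha3 (−0.69) fell too. In folding and secretion 1 of 12 passed, Creb3l1 (−0.98, SE 0.21), a membrane-bound activator of collagen secretion genes. In propeptide cleavage 2 of 6 fell, the procollagen N-proteinases Adamts14 (−0.79) and Adamts2 (−0.33).

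Among 5 lysyl oxidases, which cross-link fibrils, Loxl3 rose from 68.7 CPM (SD 15.1, n = 3) to 172.5 CPM (SD 13.03, n = 3), a log2 fold change of 1.34 (SE 0.14, edgeR adjusted p = 0.00043). Of 11 tested receptors, Antxr1, a receptor that binds types I and VI, rose (0.70, SE 0.12), while Itgb1, the beta subunit of the collagen integrins (−0.37), and Mrc2, an endocytic collagen receptor (−0.38), fell.

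The Prrx1 plasmid gave another picture. Of 26 collagen genes tested 1 rose and none fell, where 2.98% of all 13109 genes tested were called (1.92% higher), and the collagen median was 0.03 against 0.00 for all genes. Before adjustment, 7 collagen genes were higher and 1 lower at the 0.05 level, which 17.2% of all genes passed. The called gene was Col11a2, a chain of the fibrils of cartilage, at 13.1, 12.6 and 12.03 CPM with Prrx1 and 9.5, 5.9 and 7.0 CPM in controls. The groups were apart, at a log2 fold change of 0.76 (SE 0.14, edgeR adjusted p = 0.014), but the call was lost without any 1 of the Prrx1 libraries or without the third control (adjusted p 0.060 to 0.073).

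None of the genes called with doxycycline was called with the plasmid. Col5a2 was at 328.4, 354.8 and 273.0 CPM with the Prrx1 plasmid and 301.4, 310.6 and 339.1 CPM in controls, a log2 fold change of 0.01 (SE 0.09, edgeR adjusted p = 0.98). Col5a1 was at −0.08 (SE 0.09), Col27a1 at 0.08 (SE 0.10), Col4a1 at −0.10 (SE 0.06), Col4a2 at −0.02 (SE 0.06) and Col4a5 at 0.03 (SE 0.07). Col6a3 was at 457.9, 467.3 and 414.6 CPM against 321.0, 384.2 and 401.1 CPM, apart, with a log2 fold change of 0.28 (SE 0.09, edgeR adjusted p = 0.12). Col3a1 was at 705.9, 749.6 and 567.3 CPM against 800.2, 756.5 and 873.2 CPM, also apart, with −0.26 (SE 0.09, edgeR adjusted p = 0.16). The type I chains and Col6a1 and Col6a2 lay between −0.09 and 0.07. In the third Prrx1 library Col1a1 (1658 CPM) and Col1a2 (3522 CPM) were lower than in any other library of the experiment.

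Several scarce collagens were higher without passing. Col18a1 was at 1.5, 2.0 and 1.6 CPM against 0.9, 0.8 and 0.7 CPM (log2 fold change 1.09, SE 0.31, edgeR adjusted p = 0.078), and Col9a3, a FACIT chain, at 2.9 CPM in each Prrx1 library against 1.7, 1.2 and 1.8 CPM (0.87, SE 0.24, edgeR adjusted p = 0.075). Without the first control library 6 collagen genes were called: Col18a1, Col9a3, Col7a1, Col20a1 and Col11a2 higher and Col8a1 lower. The share of all genes called without that library is not given here, so this count cannot be weighed against it. None of the tested genes of modification, folding, cleavage, cross-linking or reception was called with the Prrx1 plasmid or with Snai1.

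The difference between the Prrx1 effects was itself tested in 1 fit over the 4 groups. Of 29 collagen genes 5 had a higher and 2 a lower effect with doxycycline than with the plasmid, where 4.01% of all 15217 genes tested were called (1.98% higher, 2.02% lower). The lowest adjusted p was that of Col5a2, with a difference of log2 fold changes of 0.96 (SE 0.13, edgeR adjusted p = 0.00041), and Col5a1 differed by 0.69 (SE 0.13, edgeR adjusted p = 0.0077). The largest of the 7 called differences was that of Col7a1, −1.57 (SE 0.31, edgeR adjusted p = 0.0093), being low with doxycycline and at 0.50 (SE 0.15) with the plasmid. Col3a1 differed by −0.69, Col6a3 by 0.62, Col27a1 by 0.89 and Col4a1 by 0.42. The calls of Col5a2, Col5a1, Col7a1 and Col3a1 held with each library left out. That of Col6a3 was lost without the third Prrx1 plasmid library or the third control, that of Col27a1 without any 1 of 8 of the 12 libraries and that of Col4a1 without any 1 of 9. The level of Prrx1 differs as well between both designs (3728 to 4189 CPM with doxycycline, 14190 to 18780 CPM with the plasmid). So do the drug, delivery, depth, fragment length and the markers Dcn, Lum and Pecam1 given above, and all of these cannot be told apart. Between Prrx1 plasmid and control libraries, epithelial markers (9 of 9 matched, 3.05 to 3.60 against 2.10 to 2.61 CPM, 85.9% of it Krt8) and immune markers (7 of 7, 9.28 to 11.06 against 11.4 to 14.6 CPM, mostly Cd68 and Lyz2) were also apart. Fibroblast sums overlapped, but 2 single fibroblast markers were apart downward and 0 upward. These were Dcn (130.5 to 135.5 against 159.0 to 176.7 CPM) and Lum (32.6 to 38.6 against 39.3 to 45.3 CPM). The part of these markers in the collagen values was not tested.

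**Figure D3:**
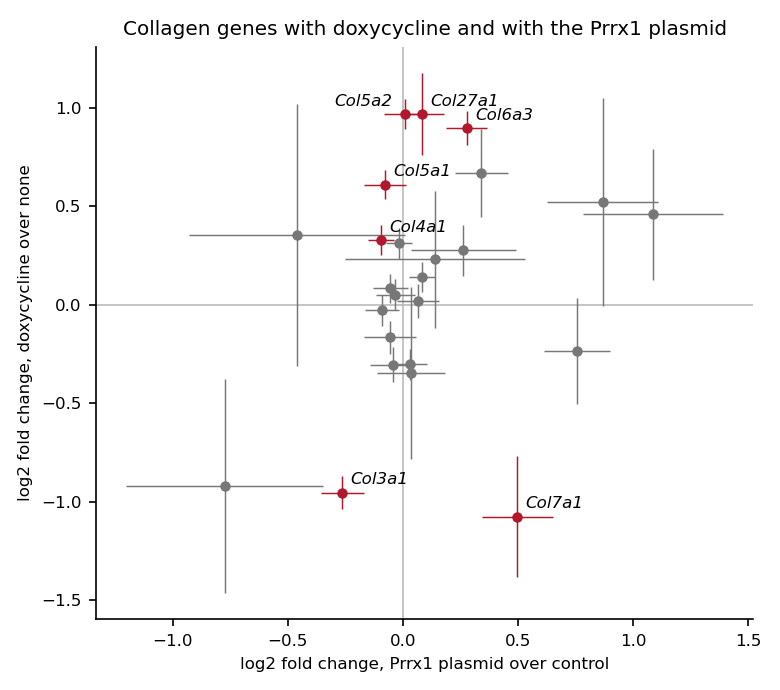
Log2 fold change of each collagen gene tested in both Prrx1 designs and in all 6 comparisons, with the plasmid (horizontal) and with doxycycline (vertical), bars ± SE; red genes have an adjusted p under 0.05 for the difference. Col5a2, Col27a1, Col6a3, Col5a1 and Col4a1 lie high on the vertical axis, and Col7a1 and Col3a1 lie low.

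With Snai1, none of 26 collagen genes tested was called by edgeR, where 1.61% of all 13109 genes were. Before adjustment, 7 collagen genes were higher and none lower at the 0.05 level, which 16.3% of all genes passed. DESeq2 called 2, Col11a2 and Col7a1, and 4.13% of all genes. Col11a2 was at 10.7, 11.6 and 11.3 CPM against 9.5, 5.9 and 7.0 CPM in the controls shared with Prrx1, a log2 fold change of 0.59 (SE 0.15, edgeR adjusted p = 0.064). Col7a1 was at 6.9, 7.4 and 6.2 CPM against 5.3, 4.6 and 3.7 CPM, also 0.59 (SE 0.15, edgeR adjusted p = 0.074). Both were apart from the controls, and both were called without the first control library. With the Prrx1 plasmid, whose values rest on the same controls, Col11a2 was at 0.76 and Col7a1 at 0.50. Marker sums overlapped between Snai1 and control libraries. Of single fibroblast markers 1 was apart downward, Dcn (127.1 to 145.8 against 159.0 to 176.7 CPM), and 0 upward. Its part in the collagen values was not tested.

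The abundant chains did not pass with Snai1: log2 fold changes of types I, III, IV (alpha 1 and 2), V and VI lay between −0.04 (Col4a1) and 0.24 (Col6a3, SE 0.09, edgeR adjusted p = 0.19), and Col18a1 was at 0.18 (SE 0.33). In the direct contrast of Snai1 against Prrx1, none of 26 collagen genes was called by edgeR, where 0.252% of all genes were, or by DESeq2, where 0.336% were. Before adjustment, 2 were higher and 1 lower at the 0.05 level, which 5.46% of all genes passed.

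Egr1 and Jun gave no collagen call in edgeR. Of 30 genes tested with Egr1 none passed, where 0.323% of all 14538 genes were called, and DESeq2 called none, where it called 1.44% of all genes. Before adjustment, 1 of the 30 was higher and none lower at the 0.05 level, which 10.2% of all genes passed. With Jun none of 30 passed, where 0.956% of all genes were called, and DESeq2 called 1 (Col1a2), and 3.58% of all genes. Before adjustment, 4 were higher and 2 lower at the 0.05 level, which 15.3% of all genes passed. Jun, as part of AP-1, is known as an activator of collagenase genes.

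Col1a2 was at 2779, 2753 and 2980 CPM with Jun and 2686, 2231 and 2558 CPM in controls, apart, with a log2 fold change of 0.19 (SE 0.06, edgeR adjusted p = 0.17). Col1a1 was at 917.2, 853.6 and 980.0 CPM against 841.2, 619.5 and 820.8 CPM, likewise apart, with 0.27 (SE 0.12, edgeR adjusted p = 0.35). Col3a1 was at 0.32 (SE 0.13), Col5a1 at 0.30 (SE 0.12), Col5a2 at 0.18 (SE 0.09) and Col6a3 at 0.20 (SE 0.07), while Col4a1, Col4a2, Col6a1 and Col6a2 lay between −0.02 and 0.11. With Egr1 the same genes lay between 0.00 (Col6a2) and 0.20 (Col3a1, SE 0.13). Col18a1, under 3 CPM in every library, was at −1.09 (SE 0.66) with Jun and −0.04 (SE 0.64) with Egr1. The second control library, in which neural markers were at 119 CPM, was the lowest of all 9 libraries for Col1a1, Col1a2, Col3a1, Col5a1 and Col5a2. Its part in these values was not tested beyond leaving it out, after which no collagen gene was called in either comparison.

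Limma on log2(TPM + 1) called 7 collagen genes with Jun, all higher (Col1a1, Col1a2, Col3a1, Col5a1, Col5a2, Col6a1 and Col6a2), and 2 with Egr1 (Col1a2 and Col6a1). These values are not rescaled between libraries by TMM. The share of all genes that limma called is not given here, so both counts cannot be read as a response particular to collagens. In the direct contrast of Jun against Egr1, none of 30 genes was called by edgeR, where 0.44% of all genes were, or by DESeq2, where 1.58% were. Before adjustment, 1 was higher and 3 lower at the 0.05 level, which 11.8% of all genes passed. Of the modifying and receptor genes, Plod2, a lysyl hydroxylase (0.25, SE 0.05), and Ddr2, a fibrillar collagen receptor kinase (0.25, SE 0.05), rose with Jun, where 0.956% of all genes were called, and none was called with Egr1. Marker sums were apart between Jun and control libraries for fibroblast (13 of 13 matched, 16340 to 17620 against 13750 to 15670 CPM, 89.7% of it Fn1 and Vim), epithelial (9 of 9, 2.66 to 7.35 against 11.3 to 15.7 CPM), endothelial (6 of 6, 3.27 to 3.37 against 3.60 to 3.97 CPM) and immune markers (7 of 7, 10.3 to 11.8 against 12.5 to 24.8 CPM). With Egr1 they were apart for fibroblast (16000 to 16760 CPM) and endothelial markers (4.49 to 4.98 CPM), both higher than in those controls. Their part in the collagen values was not tested.

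**Figure D4:**
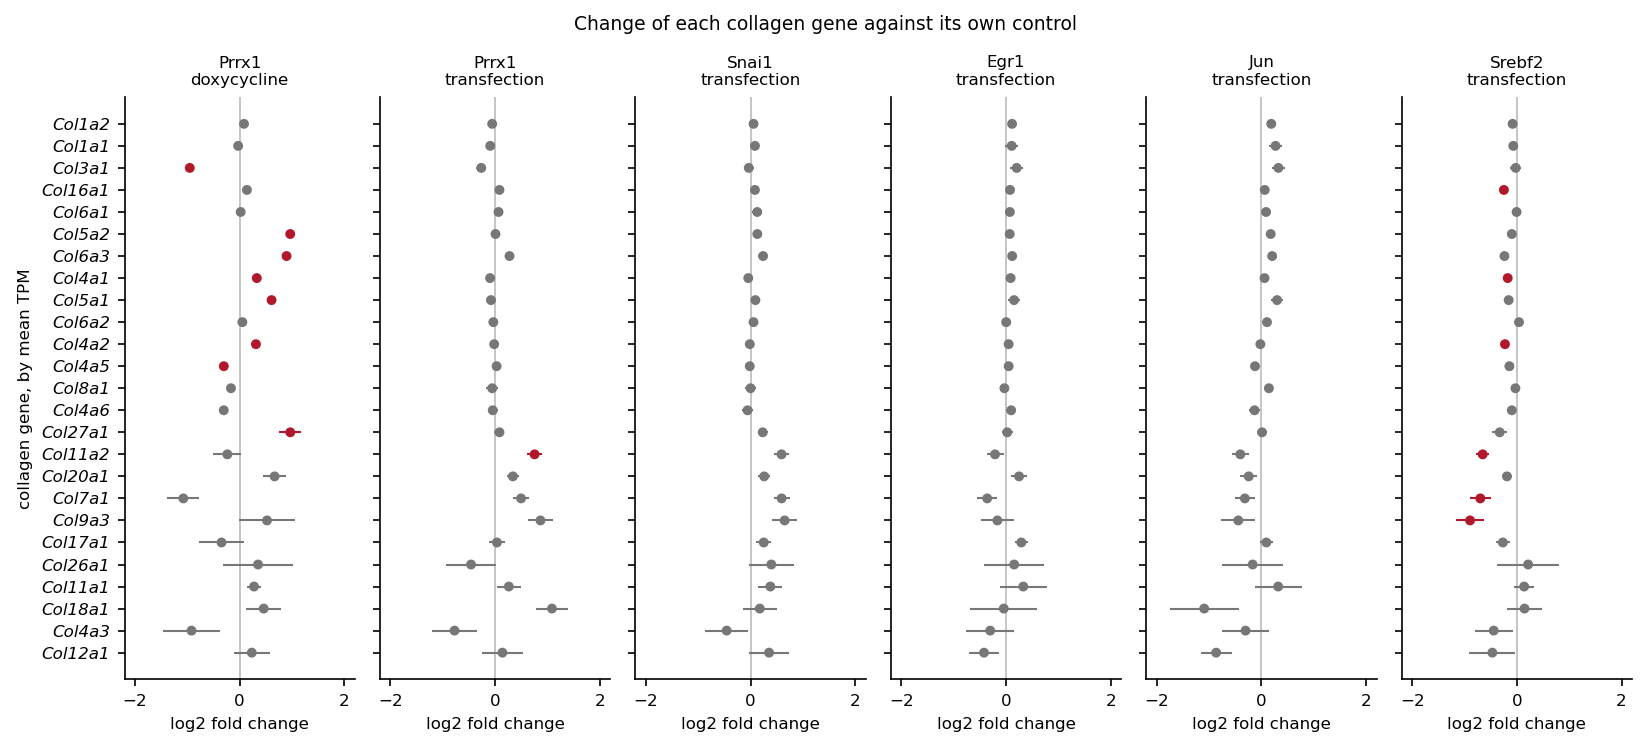
Log2 fold change ± SE of the 25 collagen genes tested in all 6 comparisons, ordered by mean TPM, with 1 panel per treated group against its own control; red marks an adjusted p under 0.05. The doxycycline panel holds red points on both sides of 0, the Srebf2 panel red points below 0, and the Snai1, Egr1 and Jun panels none.

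Collagens of several classes were lower with Srebf2, by log2 fold changes of −0.18 to −0.90. Of 26 genes tested 6 fell, none rose and 20 did not pass, where 17.3% of all 12729 genes tested were called (8.63% higher, 8.67% lower). The collagen median was −0.15 and that of all genes 0.01, and 5 of the 26 log2 fold changes were above 0. The groups were apart downward for 7 collagen genes and for 17.3% of all genes, and apart upward for no collagen gene and for 18.2% of all genes.

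Col11a2, of the fibril-forming class, was at 10.3, 7.5 and 8.4 CPM with Srebf2 and 14.3, 14.6 and 12.3 CPM in controls, with groups apart and a log2 fold change of −0.65 (SE 0.12, edgeR adjusted p = 0.0020). Col16a1, a FACIT chain, was at 626.9, 588.6 and 544.6 CPM against 724.6, 703.4 and 662.8 CPM, also apart, with −0.25 (SE 0.06, edgeR adjusted p = 0.0069). Col9a3, the other FACIT gene that fell, was at 2.0, 1.1 and 2.2 CPM against 3.0, 4.0 and 2.9 CPM, with −0.90 (SE 0.27, edgeR adjusted p = 0.028). Col7a1 was at 3.9, 3.3 and 2.1 CPM against 4.5, 5.4 and 5.1 CPM, with −0.70 (SE 0.21, edgeR adjusted p = 0.027). All 3 Srebf2 libraries lay under all 3 controls for each of these genes.

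The type IV pair fell together. Col4a1 was at 365.2, 348.9 and 350.9 CPM against 397.9, 410.5 and 395.1 CPM, apart, with a log2 fold change of −0.18 (SE 0.05, edgeR adjusted p = 0.016). Col4a2 was at 249.9, 235.9 and 228.0 CPM against 263.6, 297.1 and 275.3 CPM, apart, with −0.23 (SE 0.05, edgeR adjusted p = 0.0088). The main fibril chains did not pass: Col1a1 at −0.07 (SE 0.07), Col1a2 at −0.08 (SE 0.06), Col3a1 at −0.02 (SE 0.10), Col5a1 at −0.16 (SE 0.07) and Col5a2 at −0.10 (SE 0.06). Of type VI, Col6a3 was at −0.24 (SE 0.08, edgeR adjusted p = 0.079), Col6a1 at −0.01 and Col6a2 at 0.04, and Col18a1 was at 0.14 (SE 0.33).

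**Figure D5:**
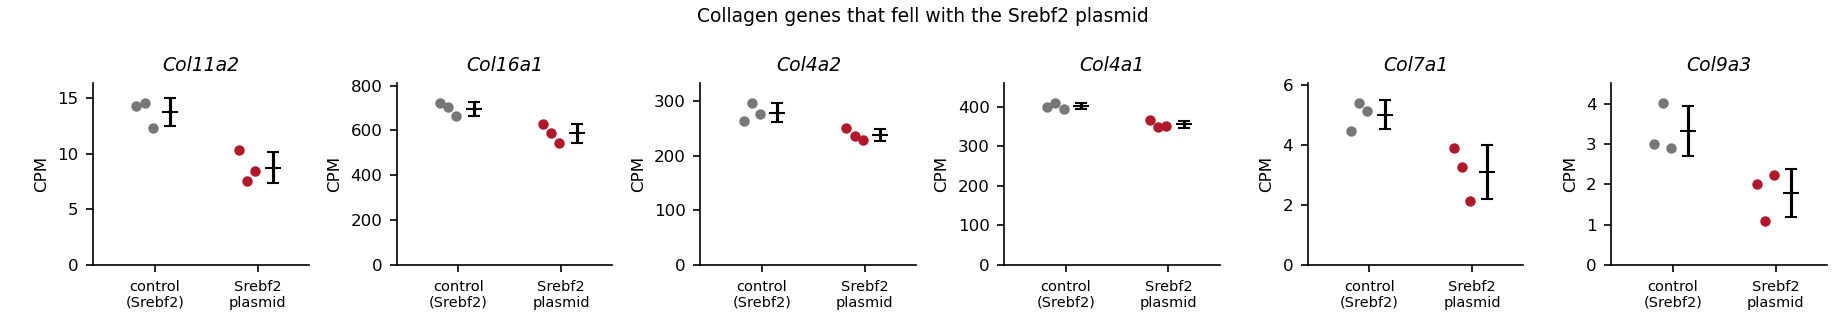
CPM of the 6 collagen genes called with Srebf2 in each of 3 control (grey) and 3 Srebf2 (red) libraries; bars are the mean ± SD, and every axis starts at 0. Srebf2 libraries lie below all controls in each panel, with Col11a2 from 7.5 to 10.3 CPM against 12.3 to 14.6 CPM.

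The calls of Col11a2 and Col16a1 held with each library left out; Col4a1, Col4a2, Col7a1 and Col9a3 lost theirs without the second control, and Col4a1, Col7a1 and Col9a3 also without the second Srebf2 library, Col7a1 also without the third control or the third Srebf2 library (adjusted p 0.058 to 0.16). On log2(TPM + 1) with limma no collagen gene was called, with an adjusted p of 0.65 for Col11a2 and 0.25 for Col16a1. Fragment length was apart between the groups (222.1 to 226.5 nt with Srebf2, 229.4 to 246.6 nt in controls). Summed neural markers (8 of 8, 17.9 to 19.2 against 19.6 to 22.04 CPM) were apart too. So were Sox9 (137.1 to 140.1 against 151.5 to 171.4 CPM) and the sum of the 8 matched chondrocyte markers (138.0 to 140.9 against 152.7 to 172.3 CPM). Sox9 was 99.4% of that sum, while the other 7 were under 1 CPM. Fibroblast sums overlapped, but 3 single fibroblast markers were apart upward and 0 downward. These were Vim (3438 to 3817 against 3225 to 3295 CPM), Pdgfra (434.9 to 481.1 against 360.0 to 416.3 CPM) and Dcn (257.7 to 316.7 against 207.0 to 246.2 CPM). The part of these differences in the collagen values was not tested.

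The genes around collagen went both ways with Srebf2, where 17.3% of all genes tested were called, 8.63% higher and 8.67% lower. In folding and secretion 3 of 12 rose and 1 fell: Mia2 (0.24) and Mia3 (0.15), which load procollagen into large carriers, and the disulfide isomerase Pdia3 (0.16) rose, and Serpinh1, the collagen chaperone HSP47, fell (−0.18, SE 0.05). Of 13 modification genes 2 rose, the prolyl 3-hydroxylation cofactor Crtap (0.63, SE 0.19, at 4.56 CPM against 2.95 CPM) and Plod2 (0.19), and 2 fell, P3h3 (−0.24) and Plod3 (−0.17). Lox, the founding lysyl oxidase, rose from 2899 to 3692 CPM as group means (0.35, SE 0.07, edgeR adjusted p = 0.0060), while Loxl3 fell (−0.20). Of 6 cleavage genes Adamts14 (−0.37) and Mep1a (−3.56, at 0.11 against 1.43 CPM) fell, and of 11 receptors Mrc2 (−0.19) and Ddr1 (−0.18).

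Read across the 6 comparisons, no collagen gene was called in more than 2. Col11a2 was called higher with the Prrx1 plasmid and lower with Srebf2, and Col4a1 and Col4a2 higher with doxycycline and lower with Srebf2. Col1a1 and Col1a2, the pair with the highest mean TPM over the 30 libraries, were called in none of the 6.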

How the data were processed

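RNA from 30 libraries was sequenced in bulk. The authors deposited estimated counts and TPM per transcript from kallisto 0.43.0 with build mm10, per the submitters' processing notes; aligner options, strand and annotation are not given in the sources used here. Of 118491 targets, 116816 matched GENCODE M21 with their version. The deposited estimated counts were summed per gene (36048 features) and rounded, and the deposited TPM were summed without rescaling. Library totals were 7996355 to 37068611, and their number limits precision for scarce genes.

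Groups were tested with edgeR 4.0.16 (R 4.3.3), by robust quasi-likelihood F tests after TMM scaling, with filterByExpr with a minimum count of 10 and total of 15, prior count 0.125, and a two-sided Benjamini-Hochberg adjusted p under 0.05 over all genes tested. Groups that share controls shared 1 fit. CPM use the TMM-scaled totals of each experiment, and the SE of a log2 fold change comes from its F statistic. DESeq2 1.42.0 and limma 3.58.1 on log2(TPM + 1), restricted to means of at least 1 TPM, were alternatives, with other filters, a replicate block, 1 fit over 30 libraries, and each library left out. The procedure was tested on simulated data. Promoter windows come from RefSeq (GRCm38.p6).

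Named with values were all called collagens, the chains of types I, III, IV (alpha 1 and 2), V, VI and XVIII, the 3 most abundant genes, up to 4 called genes of each pathway list, and the delivered factor. A few more genes named with values, such as Col7a1 with doxycycline and Col4a6, were chosen after their values were seen. The genes and lists were chosen with earlier results of these data known.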

Additional observations from a re-analysis of the deposited data

Results flagged for a closer look

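For 7 collagen genes the effect of doxycycline in Prrx1-transduced cells differed from the effect of the Prrx1 plasmid by a test of the difference itself (edgeR, 4 groups of 3 libraries in 1 fit). The difference in log2 fold change was 0.955 for Col5a2, 0.685 for Col5a1, 0.891 for Col27a1, 0.616 for Col6a3 and 0.420 for Col4a1, each higher with doxycycline. It was −1.57 for Col7a1 and −0.693 for Col3a1, each lower with doxycycline. The drug, delivery, the level of Prrx1, depth, fragment length and the markers Dcn, Lum and Pecam1 differ together between both experiments and cannot be told apart.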

How the results depend on the processing

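Of 22 calls, none changed sign in any alternative run, 10 held with each library left out, and 3 held in every alternative. The count of called collagens moved as follows, given here without the share of all genes called in each alternative. On log2(TPM + 1) with limma it was 2 (main 8) with doxycycline, 0 (1) with the Prrx1 plasmid, 2 (0) with Egr1, 7 (0) with Jun, 0 (6) with Srebf2 and 1 (7) for the Prrx1 difference. With DESeq2 it was 2 (0) with Snai1, 1 (0) with Jun and 10 (7) for the difference; without a filter on low counts it was 2 with the Prrx1 plasmid, 2 with Snai1 and 9 with Srebf2; in 1 fit over 30 libraries it was 11 with doxycycline, 4 with Srebf2 and 10 for the difference. The stricter filter gave 4 with Srebf2. With 1 library left out it ranged from 4 to 7 with doxycycline, 0 to 6 with the Prrx1 plasmid (6 without the first control), 0 to 2 with Snai1 (2 without the same control), 2 to 9 with Srebf2 (2 without the second control, 3 without the second Srebf2 library) and 4 to 8 for the difference (4 without the third control), and it was 0 throughout for Egr1 and Jun. The cause was not tested. Signs were followed for the calls, for Col1a1, Col1a2 and Col3a1 in the 6 comparisons with a control, and for a few more uncalled values. Among these, signs turned only for uncalled values near 0. With limma Col1a1 was at 0.0469 with doxycycline and Col3a1 at 0.179 with Srebf2. With libraries left out the range was −0.0872 to 0.0187 (Col1a1, doxycycline), −0.124 to 0.0290 (Col1a2, Prrx1 plasmid), −0.0854 to 0.0245 (Col3a1, Snai1), −0.0204 to 0.187 (Col1a1, Egr1), −0.136 to 0.00163 (Col1a1, Srebf2) and −0.126 to 0.0388 (Col3a1, Srebf2). Other uncalled values were not followed. Deviations of same-numbered libraries from their group means had correlations of −0.177 to 0.114. With 3 libraries per group, these cannot settle whether the numbers pair the libraries. With a replicate block the counts were 6 with doxycycline, 1 with the Prrx1 plasmid, 7 with Srebf2, 6 for the difference and 0 in the other comparisons. Depth limits genes under about 1 TPM.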
